A study of Mus musculus with 18 samples.

Results

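The border of a photothrombotic cortical infarct was compared with tissue from the opposite side of the brain in mice that lack Trem2, using 6 of the 18 RNA sequencing libraries of the study: 3 of peri-infarct tissue and 3 of contralateral tissue, chosen by their labels (knockout genotype and tissue site). All mice were male, on a C57Bl6 background and 8 to 10 weeks old. Each received Rose Bengal at 50 mg/kg into the abdomen and then 525 nm laser light at 125 mW over a cortical circle of 3 mm, which clots the vessels under the light, and each was perfused 7 days after the injury. The brains were stained with TTC, a dye that marks living tissue, so that the infarct core, the zone around it and the contralateral site could be cut out. Because both groups compared come from operated knockout animals, no tissue from an unoperated brain enters the comparison. The other libraries used here are 3 of knockout infarct core and 6 of peri-infarct and contralateral tissue from wild-type mice given the same lesion. Wild-type core libraries enter only alternative fits. The sources used here do not say how the Trem2 allele was disrupted. The labels number the replicates without saying that each number is a separate animal, so the p-values measure the spread between these libraries.

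Trem2 sits on the surface of microglia and macrophages, binds lipids and lipoproteins, and signals through the adaptor Tyrobp and the kinase Syk. In many models of brain injury and degeneration, microglia move through a homeostatic state, marked by P2ry12 and Tmem119, towards a phagocytic, lipid-handling state marked by Apoe, Lpl, Gpnmb and Spp1, and Trem2 is known for its role in that later state. Around an infarct, astrocytes become reactive and form a border with fibroblasts, vessels and matrix that separates dead from living cortex.

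Trem2 itself was low in the knockout libraries but not at 0. Its level in contralateral tissue was 0.706, 0.927 and 0.347 CPM (reads of a gene scaled to the size of its library), and in peri-infarct tissue it was 2.49, 3.23 and 4.03 CPM. In wild-type tissue it averaged 25.4 ± 4.3 CPM (SD, n = 3) on the contralateral side and 114 ± 21.6 CPM in the peri-infarct zone. All 6 knockout libraries lay below every wild-type library of the same sites. The residual reads were still higher at the border of the knockout, with a log2 fold change of 2.29 ± 0.35 (± SE, edgeR adjusted p = 0.0011).

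The 6 libraries held between 16993970 and 17605403 assigned reads and between 16830 and 17109 detected genes, and the 10 most abundant genes took 3.27 to 3.80% of the reads. The first principal component carried 59.4% of the variance and separated all 3 peri-infarct libraries from all 3 contralateral ones. The second, with 14.7%, separated contralateral replicates 1 and 2. Excitatory cortical neuron markers were present at both sites, at 5699 to 6398 CPM in contralateral tissue and 4419 to 5937 CPM at the border, and Slc17a7, the vesicular glutamate transporter of cortical neurons, stood at 797 ± 126 TPM (scaled for gene length and library size; SD, n = 3) there. Choroid plexus transcripts, by contrast, were high in contralateral replicate 2 and peri-infarct replicates 1 and 3, and the sum of 10 of these markers ranged from 32.8 to 2532 CPM on the contralateral side and from 26.7 to 2371 CPM at the border. Their part in the results was not tested. None of the 10 was called between the sites with all 6 libraries, and 2 were called higher without contralateral replicate 2.

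Peri-infarct tissue of the knockout was dominated by rises. Of 15143 genes tested, 3010 (19.9%) passed an edgeR adjusted p of 0.05: 2421 (16%) were higher at the border and 589 (3.89%) were lower. Peri-infarct and contralateral libraries did not overlap for 3001 of those 3010 genes, against 38.4% of all genes tested. The rises were also far larger than the falls. The called rises had a median log2 fold change of 0.88, 1083 exceeded 1 and 331 exceeded 2, whereas the called falls had a median of -0.33 and only 6 went beyond -1. Rises made up 80.4% of the calls in this fit, 69.4% when only the 6 libraries were fitted (2109 higher, 931 lower) and 66.5% with DESeq2 (2319 higher, 1166 lower), so the number of falls depended on the fit more than the number of rises. It fell to 250 without contralateral replicate 3, to 296 without peri-infarct replicate 1, to 330 without peri-infarct replicate 3 and to 342 without contralateral replicate 2. It was 983, 968 and 1161 without core replicates 1, 2 and 3. The tissue is a mixture of cells, so a change in the number of cells of a type and a change in RNA per cell cannot be told apart here.

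Among called genes whose log2 CPM averaged 1 or more, the largest rise was in Cd5l, a secreted macrophage protein. Its contralateral levels were 2.65, 4.75 and 0.174 CPM and its peri-infarct levels 49.5, 80.5 and 113 CPM, a log2 fold change of 4.998 ± 0.62 (edgeR adjusted p = 0.00085). Spp1, which encodes the matrix cytokine osteopontin, stood at 54.1, 44 and 14.4 CPM contralaterally and at 624, 867 and 1408 CPM in the border. Its log2 fold change was 4.69 ± 0.52 (edgeR adjusted p = 0.00049). Next came Lilrb4a (4.35), an inhibitory receptor of myeloid cells with a near copy, Lilr4b, that may share its reads, Tgm1 (4.34), a transglutaminase, Lgals3 (4.23), a galectin of activated phagocytes, and Gpnmb (4.14), a glycoprotein of lipid-loaded phagocytes. The list was completed by the inhibitory receptor Cd22 (3.99), the scavenger receptor Msr1 (3.98), the fibrillar collagen Col3a1 (3.91), the iron-binding lipocalin Lcn2 (3.61), the fungal glucan receptor Clec7a (3.52) and the interferon-inducible Ifi207 (3.50).

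**Figure D1:**
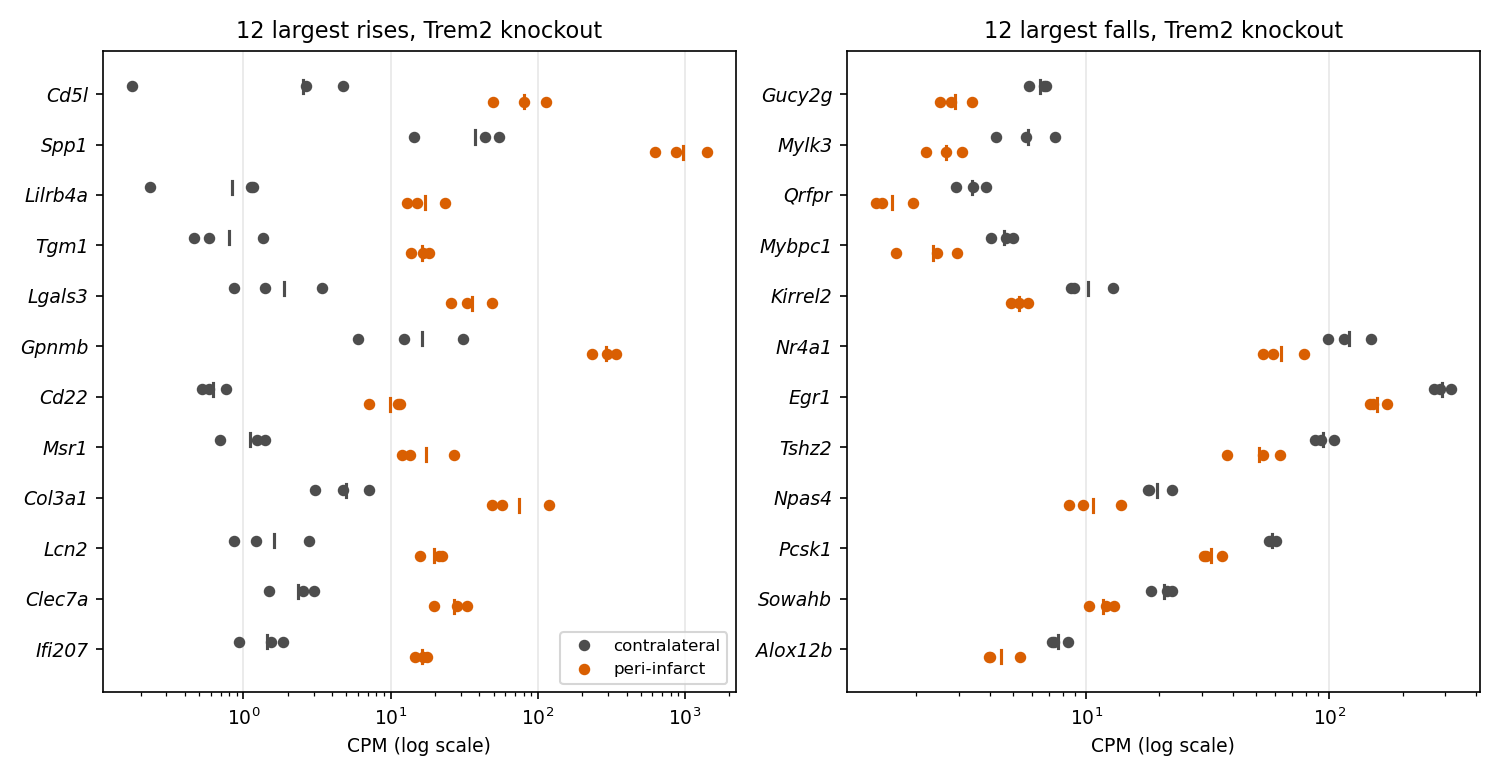
CPM of the 12 genes with the largest rises (left) and the 12 with the largest falls (right) among called genes in Trem2 knockout tissue, on log axes; each point is 1 library, grey for contralateral and orange for peri-infarct, and each vertical bar is the mean of 3 libraries. Groups do not overlap for any of the 24 genes, which the naming rule required; the rises span 3.50 to 4.998 on the log2 scale and the falls -0.79 to -1.16.

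Falls were small. Pcsk1, a convertase that trims neuropeptide precursors, went from 60.1, 56.3 and 57.6 CPM to 31, 30.5 and 36.1 CPM, with a log2 fold change of -0.83 ± 0.14 (edgeR adjusted p = 0.0024). The transcription factor Tshz2 went from 104, 86.9 and 92.2 CPM to 53.5, 62.9 and 38.1 CPM, a log2 fold change of -0.87 ± 0.17. For both genes the 2 sets of 3 libraries were apart, which the naming rule required, and both calls held without any single library. Gucy2g, a receptor guanylyl cyclase, had the largest fall of such genes at -1.16 ± 0.22, from 6.83, 6.72 and 5.84 CPM. Npas4 (-0.87), a neuronal activity factor, and Alox12b (-0.79), a lipoxygenase, also fell. The other 7 of the 12, Mylk3 (-1.13), Qrfpr (-1.10), Mybpc1 (-0.97), Kirrel2 (-0.94), Nr4a1 (-0.92), Egr1 (-0.89) and Sowahb (-0.82), each lost the call when at least 1 library was left out. Mylk3 lost it without contralateral replicate 2 or 3 or any of the 3 peri-infarct libraries (edgeR adjusted p up to 0.11), and Mybpc1 without contralateral replicate 1 or 3 or peri-infarct replicate 1 or 3 (up to 0.11). For Kirrel2 it was contralateral replicate 1 or peri-infarct replicate 1 or 3 (up to 0.07), and for Nr4a1 contralateral replicate 3 or peri-infarct replicate 1 or 2 (up to 0.067). For Qrfpr it was peri-infarct replicate 1 or 3 (up to 0.058), and for Egr1 and Sowahb contralateral replicate 3 or peri-infarct replicate 1 (up to 0.056 and 0.063).

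Reactive astrocyte genes were strongly raised without Trem2. Of 13 pan-reactive genes, which rise in astrocytes after many kinds of injury, 12 were called higher and none lower, with a median log2 fold change of 2.14 against 0.03 over all genes tested. Gfap, the intermediate filament that defines reactive astrocytes, stood at 857, 719 and 848 CPM contralaterally and 2690.1, 2919.5 and 2596 CPM at the border. Vim, a second filament gene, went from 75.4, 71.9 and 59.7 CPM to 355, 359 and 366 CPM and had the smallest p of all genes tested (log2 fold change 2.38 ± 0.10, edgeR adjusted p = 3.6e-06). For both genes every border library lay above every contralateral one. Cd44, a hyaluronan receptor, rose by 2.51, Steap4, a metalloreductase, by 3.25, and Osmr, the oncostatin M receptor, by 1.79.

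Genes assigned in earlier work to 2 astrocyte subsets also rose. Of 12 tested genes of the inflammatory A1 set, 9 were higher and none lower (median 1.63), among them C3 (2.48), the central complement protein, and Ggta1 (1.77), a galactosyltransferase. Of 11 tested genes of the A2 set, first described after ischaemia, 8 were higher and none lower (median 1.29). They included Emp1 (2.37), a membrane protein, Ptx3 (3.43), a soluble pattern receptor, and Cd109 (1.76). Several of these genes are also expressed by microglia and vessels, so the sets do not assign the signal to astrocytes alone.

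Resting astrocyte genes leaned higher. Aqp4, the water channel of astrocyte endfeet, had the largest change of the list: it went from 213, 213 and 272 CPM to 517, 399.8 and 477 CPM, a log2 fold change of 1.00 ± 0.12 (edgeR adjusted p = 0.00031). Gja1, the gap junction protein connexin 43, rose by 0.46 and Mlc1, an endfoot membrane protein, by 0.41. The glutamate transporter Slc1a2 gave 0.23 ± 0.13 and did not pass. In all, 6 of 18 were called higher (median 0.23), against 16% of all genes tested, and the count was 3 without contralateral replicate 2 or without peri-infarct replicate 3.

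Cytokines that signal through gp130 and their feedback genes also rose. Among these, Osmr is also in the pan-reactive list and Clcf1 in the A2 list. Osm, oncostatin M, was barely present on the contralateral side at 0.177, 0.116 and 0.116 CPM and stood at 1.56, 1.17 and 1.36 CPM in the border, a log2 fold change of 3.27 ± 0.38. Its receptor gene Osmr went from 4.88, 5.56 and 5.27 to 21.9, 17.9 and 14.5 CPM. Stat3, the transcription factor downstream, rose by 0.78 ± 0.06 (edgeR adjusted p = 3.5e-05), and Socs3, its feedback inhibitor, by 2.03 ± 0.20. Lif (2.07) and Clcf1 (1.58), further ligands of this group, also rose. Of 13 genes tested, 9 were higher and none lower.

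Homeostatic microglia genes were raised at the border. Tmem119 stood at 37.2, 30.5 and 31.1 CPM contralaterally and at 75.5, 86.4 and 71.7 CPM in the peri-infarct zone. The chemokine receptor Cx3cr1 went from 96, 78.7 and 67.1 CPM to 195, 211 and 172 CPM. Fcrls, an Fc receptor-like protein of microglia, rose by 2.08 ± 0.21 (edgeR adjusted p = 0.00015), Olfml3 by 1.45 and the nucleotide receptor P2ry13 by 1.13. Its paralog P2ry12, which guides process movement, showed the smallest of these changes at 0.72 ± 0.18. That call was lost without contralateral replicate 1 or 3 or without peri-infarct replicate 1 or 2 (edgeR adjusted p up to 0.069). In all, 11 of 12 were higher, and the summed level of the list was 660 to 813 CPM contralaterally and 1786 to 2032 CPM at the border.

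Every one of the 23 disease-associated microglia genes was higher at the border of the knockout, with log2 fold changes from 0.62 to 4.69 and a median of 1.93. Apoe, the main lipid carrier of the brain, was the most abundant of the named members, at 4472 ± 189 TPM (SD, n = 3) contralaterally and 10376 ± 818 TPM at the border. Gpnmb went from 12.4, 30.8 and 6.02 CPM to 234, 295 and 338 CPM, and the 3 border libraries lay within a narrower relative range than the contralateral ones. Cst7, a cysteine protease inhibitor, rose by 3.21 ± 0.22 (edgeR adjusted p = 2.1e-05) and the tetraspanin Cd9 by 1.47 ± 0.10. Lpl, lipoprotein lipase, had one of the smaller changes: 22, 18.1 and 19.8 CPM contralaterally, 35.5, 48 and 42.7 CPM at the border, and a log2 fold change of 1.08 ± 0.18 (edgeR adjusted p = 0.0025). Csf1, a growth factor for microglia, rose by 1.16, the chemokine Ccl6 by 1.31 and the protease Ctsl by 1.41.

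The adaptor and kinases that Trem2 uses were higher as well. Tyrobp, the signalling adaptor that many myeloid receptors share, went from 20.9, 19.6 and 16.5 CPM to 68.7, 91.7 and 89.7 CPM, a log2 fold change of 2.13 ± 0.16. Vav1, an exchange factor, rose by 1.97, Btk, a Tec kinase, by 2.09, and Ms4a6d, a membrane protein of the Ms4a cluster, by 2.84. All 17 tested genes of this list, Trem2 included, were called higher (median 1.76). All 5 Fc receptor genes tested also rose, among them Fcgr4 (2.47) and the shared chain Fcer1g (1.99). Inhibitory and paired receptors rose in 11 of 13 cases. Lilr4b went from 0.118, 0.0579 and 0.0579 CPM to 3.42, 2.93 and 4.66 CPM, Siglec1, a sialic acid receptor of macrophages, rose by 3.47, and Ptpn6, the phosphatase these receptors recruit, by 2.09.

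Most genes of infiltrating and border macrophages were higher at the border, some of them from very low contralateral levels. Mmp12, macrophage elastase, stood at 0.0588, 0.116 and 0 CPM contralaterally and at 3.42, 5.81 and 6.65 CPM in the border, or 3 reads against 275 over each group of 3 libraries. That is a ratio of 91 with an exact 95% interval of 30.8 to 444, which covers counting error only. Chil3, a chitinase-like protein, rose by 3.35, Ms4a7 by 2.91 and Ccr2, the receptor that brings monocytes into tissue, by 1.76. Ly6c2, a monocyte surface antigen, gave 1.93 ± 0.62 (edgeR adjusted p = 0.054). That value lies at the threshold, and it was above it in 8 of the 9 fits that left out 1 library. In all, 9 of 14 genes were higher, and their summed level was 16.7 to 27.0 CPM contralaterally against 99.1 to 211 CPM at the border.

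Genes for clearing debris and dying cells, receptors and their partners, rose in 12 of 15 cases (median 0.62). The count was 8 to 11 in the fits that left out 1 library. With the 6 libraries alone, and with DESeq2, 11 were higher and 1 lower. Msr1 went from 1.24, 1.39 and 0.694 CPM to 13.6, 12 and 26.9 CPM, Stab1, which binds phosphatidylserine, rose by 2.85 ± 0.20, Cd36, a fatty acid and lipoprotein receptor, by 3.05, and Pros1, a bridging ligand for Mertk and Axl, by 1.31. Lysosomal genes followed: 16 of 18 were higher (median 1.42). Grn, progranulin, rose by 2.31 ± 0.15 (edgeR adjusted p = 2.1e-05), the cathepsins Ctsh, Ctsz and Ctsc by 2.00, 1.98 and 1.89, and the membrane proteins Lamp1 and Lamp2 by 0.74 and 0.76. Among myeloid transcription factors, 10 of 16 were higher. They included Spi1 (1.66), which encodes PU.1, Irf8 (1.85) and Cebpa (1.51). Bhlhe40, named after its value was seen, was the only member called lower (-0.40).

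Markers of other leukocytes were low. Neutrophil genes summed to 13.4 to 19.5 CPM contralaterally and 45.5 to 52.1 CPM at the border, Ly6g was at 0 in all 6 libraries, and 4 of 7 tested genes were higher. Of those, Mmp8, a neutrophil collagenase that macrophages also make, rose by 3.92 and Csf3r, the receptor for granulocyte colony-stimulating factor, by 1.68. The calls of S100a8 (2.72) and Cxcr2 (1.98) each depended on single libraries: S100a8 lost it without contralateral replicate 1 or 3 or peri-infarct replicate 2 or 3, and Cxcr2 without contralateral replicate 1 or 2 or peri-infarct replicate 3 (edgeR adjusted p up to 0.11 and 0.061). S100a9 gave 1.33 ± 0.75 and did not pass (edgeR adjusted p = 0.26). The list's count was 2 without contralateral replicate 1 or peri-infarct replicate 3. Of 5 dendritic cell genes tested 2 were higher, Itgae (2.04) and Xcr1, whose 2 contralateral and 17 border reads give a ratio of 8.44 (exact 95% interval 2 to 75.3), and 1 was without any of contralateral replicates 1, 2 and 3 and peri-infarct replicates 2 and 3. Genes of T and NK cells summed to 6.95 to 13.7 CPM and 10.1 to 13.6 CPM in the 2 sites, and none of the 4 that could be tested passed. Of 5 B cell genes only Cd79b could be tested, and it did not pass (1.41 ± 0.45). Red blood cell genes, which show how well the brains were perfused, summed to 2.65 to 16.6 CPM and 0.985 to 12.4 CPM, with none called.

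Complement rose from its first component to its receptors, with 13 of 18 genes higher and none lower (median 1.83). C1qa and C1qb, chains of the recognition molecule C1q, stood at 225 ± 34 and 224 ± 33.9 TPM (SD, n = 3) contralaterally. At the border they stood at 1036 ± 38.7 and 941 ± 20.1 TPM. C1qa rose by 2.22 ± 0.15 (edgeR adjusted p = 2e-05). C3 went from 8, 7.76 and 8.33 CPM to 49.1, 37.8 and 47.3 CPM and C4b, whose near copy C4a may share its reads, from 111, 102 and 113 CPM to 455, 381 and 338 CPM. In each case the 3 border libraries were closer to one another than to any contralateral library.

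Antigen presentation genes rose in both classes. Of 11 class I genes 10 were higher, with H2-K1 at 1.81, the light chain B2m at 1.57 and the peptide transporter Tap1 at 1.78. H2-D1 and H2-K1 are close paralogs, and how the authors' counting split shared reads is not known. Of 10 class II genes 8 were higher. H2-Aa, a class II chain, went from 3.12, 2.78 and 2.95 CPM to 7.01, 11.8 and 11.5 CPM and H2-Ab1 from 3, 2.2 and 2.31 CPM to 5.56, 12.6 and 11.4 CPM, and the costimulator Cd86 rose by 1.69 ± 0.24.

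All 22 interferon response genes that could be tested were higher at the border, with log2 fold changes from 0.78 to 2.45 (median 1.73). Ifitm3, a membrane protein that blocks virus entry, had the highest level per length of the list at the border, 294 ± 27.9 TPM against 97.7 ± 19.2 TPM contralaterally (SD, n = 3). In CPM it went from 14.9, 14.6 and 20.4 to 46.1, 58.1 and 49 (log2 fold change 1.62 ± 0.14, edgeR adjusted p = 4.1e-05). Oas1a, a sensor of double-stranded RNA, went from 2.65, 3.3 and 3.3 CPM to 12.7, 17.2 and 15.4 CPM, and Gbp2, a guanylate-binding protein, from 5.06, 7.01 and 10.4 CPM to 23.5, 28 and 26.9 CPM. Contralateral replicate 3 was the highest of its group for the list as a whole. Zbp1, a sensor of Z-form nucleic acid, rose by 2.45, Ifit1 by 1.71 and Ifit2 by 1.20.

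The promoters of 3 of these genes are shown because the list moved together and because each holds letters of an interferon response element. The windows run from 250 bases before to 50 bases after a gene's start and come from RefSeq on build GRCm38.p6, not the GRCm39 build named for the alignment. The letters searched were GAAANNGAA and, for the other strand, TTCNNTTTC, with N for any base. They were found in 11 of the 16 listed genes that had a window (68.8%; 23 were listed) and in 2638 of 27025 genes of the whole table (9.76%). Capitals mark the matches, at position -58 from the start for Gbp2 (chr3:142620413-142620712, plus strand), at -20 and -14 for Oas1a (chr5:120907476-120907775, minus strand; the matches overlap) and at 3 and 20 for Ifitm3 (chr7:141010695-141010994, minus strand). A match describes the letters and is not a measured binding site.
Gbp2: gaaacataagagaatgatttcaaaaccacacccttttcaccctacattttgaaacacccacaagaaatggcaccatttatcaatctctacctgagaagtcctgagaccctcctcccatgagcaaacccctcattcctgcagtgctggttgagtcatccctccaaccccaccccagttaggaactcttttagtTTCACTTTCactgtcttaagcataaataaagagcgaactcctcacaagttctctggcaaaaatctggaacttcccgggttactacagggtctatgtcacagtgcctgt
Oas1a: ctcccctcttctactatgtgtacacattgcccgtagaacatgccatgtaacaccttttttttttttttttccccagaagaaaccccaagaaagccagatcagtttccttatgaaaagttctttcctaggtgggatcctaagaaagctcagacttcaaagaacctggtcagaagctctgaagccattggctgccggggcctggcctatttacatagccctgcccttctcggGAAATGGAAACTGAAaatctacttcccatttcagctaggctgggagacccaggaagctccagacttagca
Ifitm3: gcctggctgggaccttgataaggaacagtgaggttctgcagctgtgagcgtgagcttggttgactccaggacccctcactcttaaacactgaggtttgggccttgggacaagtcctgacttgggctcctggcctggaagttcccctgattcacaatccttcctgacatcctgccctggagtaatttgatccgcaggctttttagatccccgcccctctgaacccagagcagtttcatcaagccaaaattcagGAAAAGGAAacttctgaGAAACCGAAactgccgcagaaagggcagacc

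The same search gave little for other lists. TTCNNNGAA, the letters of a STAT site, lay in the windows of 2 of 13 pan-reactive astrocyte genes (Gfap and Steap4, 15.4%) and of 1 of 12 gp130 genes with a window (Socs3, 8.33%), against 9.55% of all genes. GAGGAAGT, the letters of a PU.1 site, lay in 1 of 17 disease-associated microglia genes (Spp1, 5.88%) against 3.69% (reverse strand ACTTCCTC). TCACNCCAC, part of a sterol response element, lay in 1 of 13 cholesterol synthesis genes (Hmgcs1, 7.69%) against 1.44% (reverse strand GTGGNGTGA).

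Most chemokine genes rose. Ccl2, the ligand of Ccr2, went from 0.294, 0.29 and 0.174 CPM to 2.55, 2.35 and 3.64 CPM, a log2 fold change of 3.46 ± 0.29 (edgeR adjusted p = 3.4e-05). Ccl3, which draws monocytes and macrophages, rose by 3.37 ± 0.43 and Cxcl16, a membrane-bound chemokine, by 2.13. In all 14 of 18 were higher, and Cx3cl1, the neuronal ligand of Cx3cr1, named after its value was seen, was the only one lower (-0.33). Fits that left out 1 library called 11 to 16 of these genes higher and 0 to 2 lower. Of 6 receptors 5 were higher, among them Cxcr4 (2.01). Innate signalling genes rose in 16 of 18 cases: the Toll-like receptors Tlr2 (2.83) and Tlr4 (1.56), the inflammasome adaptor Pycard (1.81) and the TNF receptor Tnfrsf1a (1.47). The classic cytokine Il1b did not pass, with 0.471, 0.579 and 0.752 CPM contralaterally, 0.637, 0.762 and 1.7 CPM at the border and a log2 fold change of 0.78 ± 0.39.

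Cell cycle genes rose in 19 of 20 cases with a median of 1.83. Mki67, a marker of dividing cells, stood at 4.12, 6.14 and 4.74 CPM contralaterally and 22.4, 25.1 and 35.2 CPM at the border (log2 fold change 2.46 ± 0.18). Top2a, the topoisomerase of replicating chromosomes, rose by 2.46 ± 0.18 (edgeR adjusted p = 2.2e-05), the kinetochore protein Cenpf by 1.94 and the spindle protein Tpx2 by 1.70. Which cells divided cannot be read from bulk tissue.

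Scar and matrix genes were higher. Col3a1 stood at 4.71, 3.07 and 7.12 CPM contralaterally and 57, 49 and 119 CPM at the border, where peri-infarct replicate 3 was the highest. Col1a1 gave 11.9, 5.97 and 13.7 CPM and 45.6, 47.8 and 106 CPM, with a log2 fold change of 2.66 ± 0.47. The basement membrane collagens Col4a1 (1.46) and Col18a1 (1.86) rose with smaller spread, and 10 of 14 collagens were higher in all. Among other scar genes 12 of 18 were higher, among them fibronectin Fn1 (1.86), tenascin Tnc (1.32), the lysyl oxidase Loxl2 (2.72) and thrombospondin Thbs1 (2.52). Postn, periostin, gave 1.53 ± 0.51 and did not pass (edgeR adjusted p = 0.072). Of the perineuronal net proteoglycans, Acan gave 0.32 ± 0.24 and Bcan 0.10 ± 0.10 with neither passing, while Vcan, versican, rose by 0.81 ± 0.13. In that list 5 of 12 were higher, and 2 were without contralateral replicate 2, without contralateral replicate 3 or without peri-infarct replicate 1, and 3 were without core replicate 1.

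Proteases that cut this matrix rose with it. Mmp3, stromelysin, gave 0.0588, 0 and 0.116 CPM contralaterally and 0.811, 1.35 and 2.44 CPM at the border, which is 3 reads against 80 and a ratio of 26.5 (exact 95% interval 8.74 to 131). Mmp13, a collagenase, rose by 3.98, Mmp19 by 2.25 and Mmp2, a gelatinase, by 1.61, and 14 of 17 proteases and inhibitors were higher. Of the TGF-beta pathway 9 of 14 were higher. The ligand Tgfb1 (1.56), the receptor Tgfbr2 (1.62) and the target Tgfbi (2.06), a matrix protein, were among them. Tgfb2 gave 0.34 ± 0.31 and did not pass.

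Vessel genes rose moderately. Cldn5, the main tight junction protein of brain endothelium, went from 22.5, 15.9 and 15.5 CPM to 35.5, 33.6 and 34.3 CPM (log2 fold change 0.94 ± 0.14), whereas Ocln (0.48 ± 0.19) and the glucose transporter Slc2a1 (0.34 ± 0.13) did not pass. The adhesion molecule Icam1 rose by 1.91 ± 0.13 and Vcam1 by 0.74 ± 0.10, and 13 of 18 endothelial genes were higher. Among growth signals the receptor Kdr (0.95), the apelin receptor Aplnr (2.16), Angpt1 (0.86) and Nrp1 (0.86) were higher. Vegfa, the main ligand of Kdr, was lower at -0.43 ± 0.11 (edgeR adjusted p = 0.024), a call lost without contralateral replicate 2 or 3 or without peri-infarct replicate 1 or 2 (up to 0.099). Pericyte and smooth muscle genes were higher in 5 of 11 cases, against 16% of all genes tested. Among them were Tagln (1.09), Notch3 (0.77) and Rgs5 (0.47), and the count was 3 without contralateral replicate 3. Of 10 meningeal fibroblast genes 2 were higher, a share near the 16% of all genes tested. They were Col1a1 and Dcn, a matrix proteoglycan (1.02). The transporters Slc6a13 and Slc47a1, which mark these fibroblasts more narrowly, gave 0.02 ± 0.38 and 0.32 ± 0.97. Without peri-infarct replicate 3 the call of Dcn was lost, and the count was 1.

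Oligodendrocyte genes leaned higher. Mbp, myelin basic protein, gave 3178, 4044 and 3849 CPM contralaterally and 6081, 4530.1 and 5132 CPM at the border, a log2 fold change of 0.51 ± 0.16 that did not pass (edgeR adjusted p = 0.053). Of 13 myelin genes 4 were called higher, Cldn11, Cnp, Mog and Myrf, against 16% of all genes tested. Only 1 was called without contralateral replicate 1 or 3 or without peri-infarct replicate 1 or 3, and 2 were without core replicate 1. The myelin count was 7 without core replicate 2 or with the 6 libraries alone, and 8 with DESeq2. Of 10 precursor genes 8 were higher, against the same 16%. Gpr17, which marks cells about to differentiate, rose by 0.84 ± 0.10, Enpp6, of newly formed oligodendrocytes, by 1.30 ± 0.22, and the lineage factors Sox10 and Olig1 by 0.56 and 0.48. That count was 4 without peri-infarct replicate 1 and 5 without contralateral replicate 2, contralateral replicate 3 or peri-infarct replicate 3.

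Synaptic genes were slightly lower. Snap25, a core protein of synaptic vesicle fusion, went from 2627, 2794 and 2728 CPM to 1952, 1987 and 1929.5 CPM with a log2 fold change of -0.47 ± 0.07 (edgeR adjusted p = 0.00063). Of 20 synaptic genes 8 were lower and none higher (median -0.28), where 3.89% of all genes tested were called lower. The number was 2 without contralateral replicate 2 or without peri-infarct replicate 3, 3 without contralateral replicate 1, and 4 without contralateral replicate 3 or peri-infarct replicate 1. It was 11 with the 6 libraries alone or with DESeq2, and up to 12 in the fits that left out 1 library. Slc17a7 itself gave -0.14 ± 0.15 and did not pass. Of 14 excitatory neuron genes only Rasgrf2 was called (-0.53), but 3 were called lower without peri-infarct replicate 2, with DESeq2 or with the 6 libraries alone, and 4 without core replicate 3. Of 13 inhibitory neuron genes Lhx6 (-0.69) and somatostatin, Sst (-0.59), were called, and Sst was lost without contralateral replicate 1 or peri-infarct replicate 1. That count was 5 without core replicate 3 and 6 with the 6 libraries alone. Of 17 glutamate and GABA receptor genes 2 were lower and none higher (median -0.24), and 5 were lower without core replicate 3 or with the 6 libraries alone, and 4 with DESeq2.

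Activity-dependent early genes had the lowest median of all lists, -0.52, with 5 of 16 called lower, against 3.89% of all genes tested. Npas4 gave 18.2, 17.9 and 22.6 CPM contralaterally and 8.52, 9.68 and 13.9 CPM at the border, a log2 fold change of -0.87 ± 0.19. Fosl2 was lower (-0.48 ± 0.10), and Fos, the most widely used marker of recent activity, gave -0.40 ± 0.21 without passing. Egr1, Egr3 and Nr4a1 were the other called members, and Egr3 (-0.73) lost its call without peri-infarct replicate 1 or 3. The count was 2 without peri-infarct replicate 1 and 3 without contralateral replicate 3, but 8 without core replicate 3 and 9 with DESeq2. Genes of axon growth did not move as a group: Gap43 gave -0.18 ± 0.19, and only Atf3, an injury-induced transcription factor, rose (1.84 ± 0.23).

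Cholesterol synthesis was the list with the largest share of falls. Of 20 genes 13 were lower and none higher (median -0.42), against 3.89% of all genes tested. Fdft1, squalene synthase, went from 108, 101 and 93.3 CPM to 62.9, 71.7 and 73.9 CPM with a log2 fold change of -0.53 ± 0.08 (edgeR adjusted p = 0.00094). Idi1, an isomerase (-0.65 ± 0.12), Hmgcs1 (-0.53) and Msmo1 (-0.52) fell as well. Snap25 fell by a similar amount in the same libraries, and any part of neuronal RNA in these falls was not tested.

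Genes of lipid uptake, storage and efflux went the other way, with 15 of 19 higher and none lower (median 1.02). Plin2, the coat protein of lipid droplets, went from 11.9, 13.1 and 8.91 CPM to 92.3, 107 and 149.8 CPM, a log2 fold change of 3.36 ± 0.21 (edgeR adjusted p = 2.1e-05). Abca1, which exports cholesterol to Apoe, went from 70.6, 84.8 and 70.2 CPM to 268, 267 and 271 CPM (1.84 ± 0.13). Apoc1 rose by 2.18 and Npc2, which moves cholesterol out of lysosomes, by 1.14.

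Metabolic and stress genes were called in both directions. Of 16 genes of glycolysis and hypoxia 3 were higher, against 16% of all genes tested, among them Hk2 (1.64), the inducible hexokinase, and the lactate exporter Slc16a3 (1.41), and 2 were lower, among them Bnip3 (-0.37). Of 19 respiratory chain genes 5 were lower, against 3.89% of all genes tested, and the list's median was -0.22. That count was 0 without contralateral replicate 3, 1 without peri-infarct replicate 1, 2 without peri-infarct replicate 2, 3 without contralateral replicate 1 or 2, 8 without core replicate 2, 9 without core replicate 3, and 11 with DESeq2. Iron and haem genes rose in 6 of 14 cases, against 16% of all genes tested. Hmox1, haem oxygenase, went from 7.65, 6.54 and 5.73 CPM to 35.9, 41.9 and 66.3 CPM (2.85 ± 0.33), the ferritin light chain Ftl1 rose by 1.42 and the iron carrier Trf by 1.08. The transferrin receptor Tfrc, named after its value was seen, was the 1 member called lower (-0.37). Fits that left out 1 library called 0 or 1 members of this list lower. Of 10 heat shock and unfolded protein genes 1, Trib3, was higher (1.41), and that call was lost without contralateral replicate 3 or peri-infarct replicate 1 or 2. Of 11 clock genes Cry2 (-0.28) and Nr1d1 (-0.40) were lower, and Nr1d1 was lost without peri-infarct replicate 3. Of 10 hippocampal and thalamic genes only Prkcd was called (1.96), and of 8 ependymal cilium genes only Foxj1 (0.97), a call lost in 7 of the 9 fits that left out 1 library. None of 15 ribosomal protein genes and none of 10 striatal neuron genes passed.

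**Figure D2:**
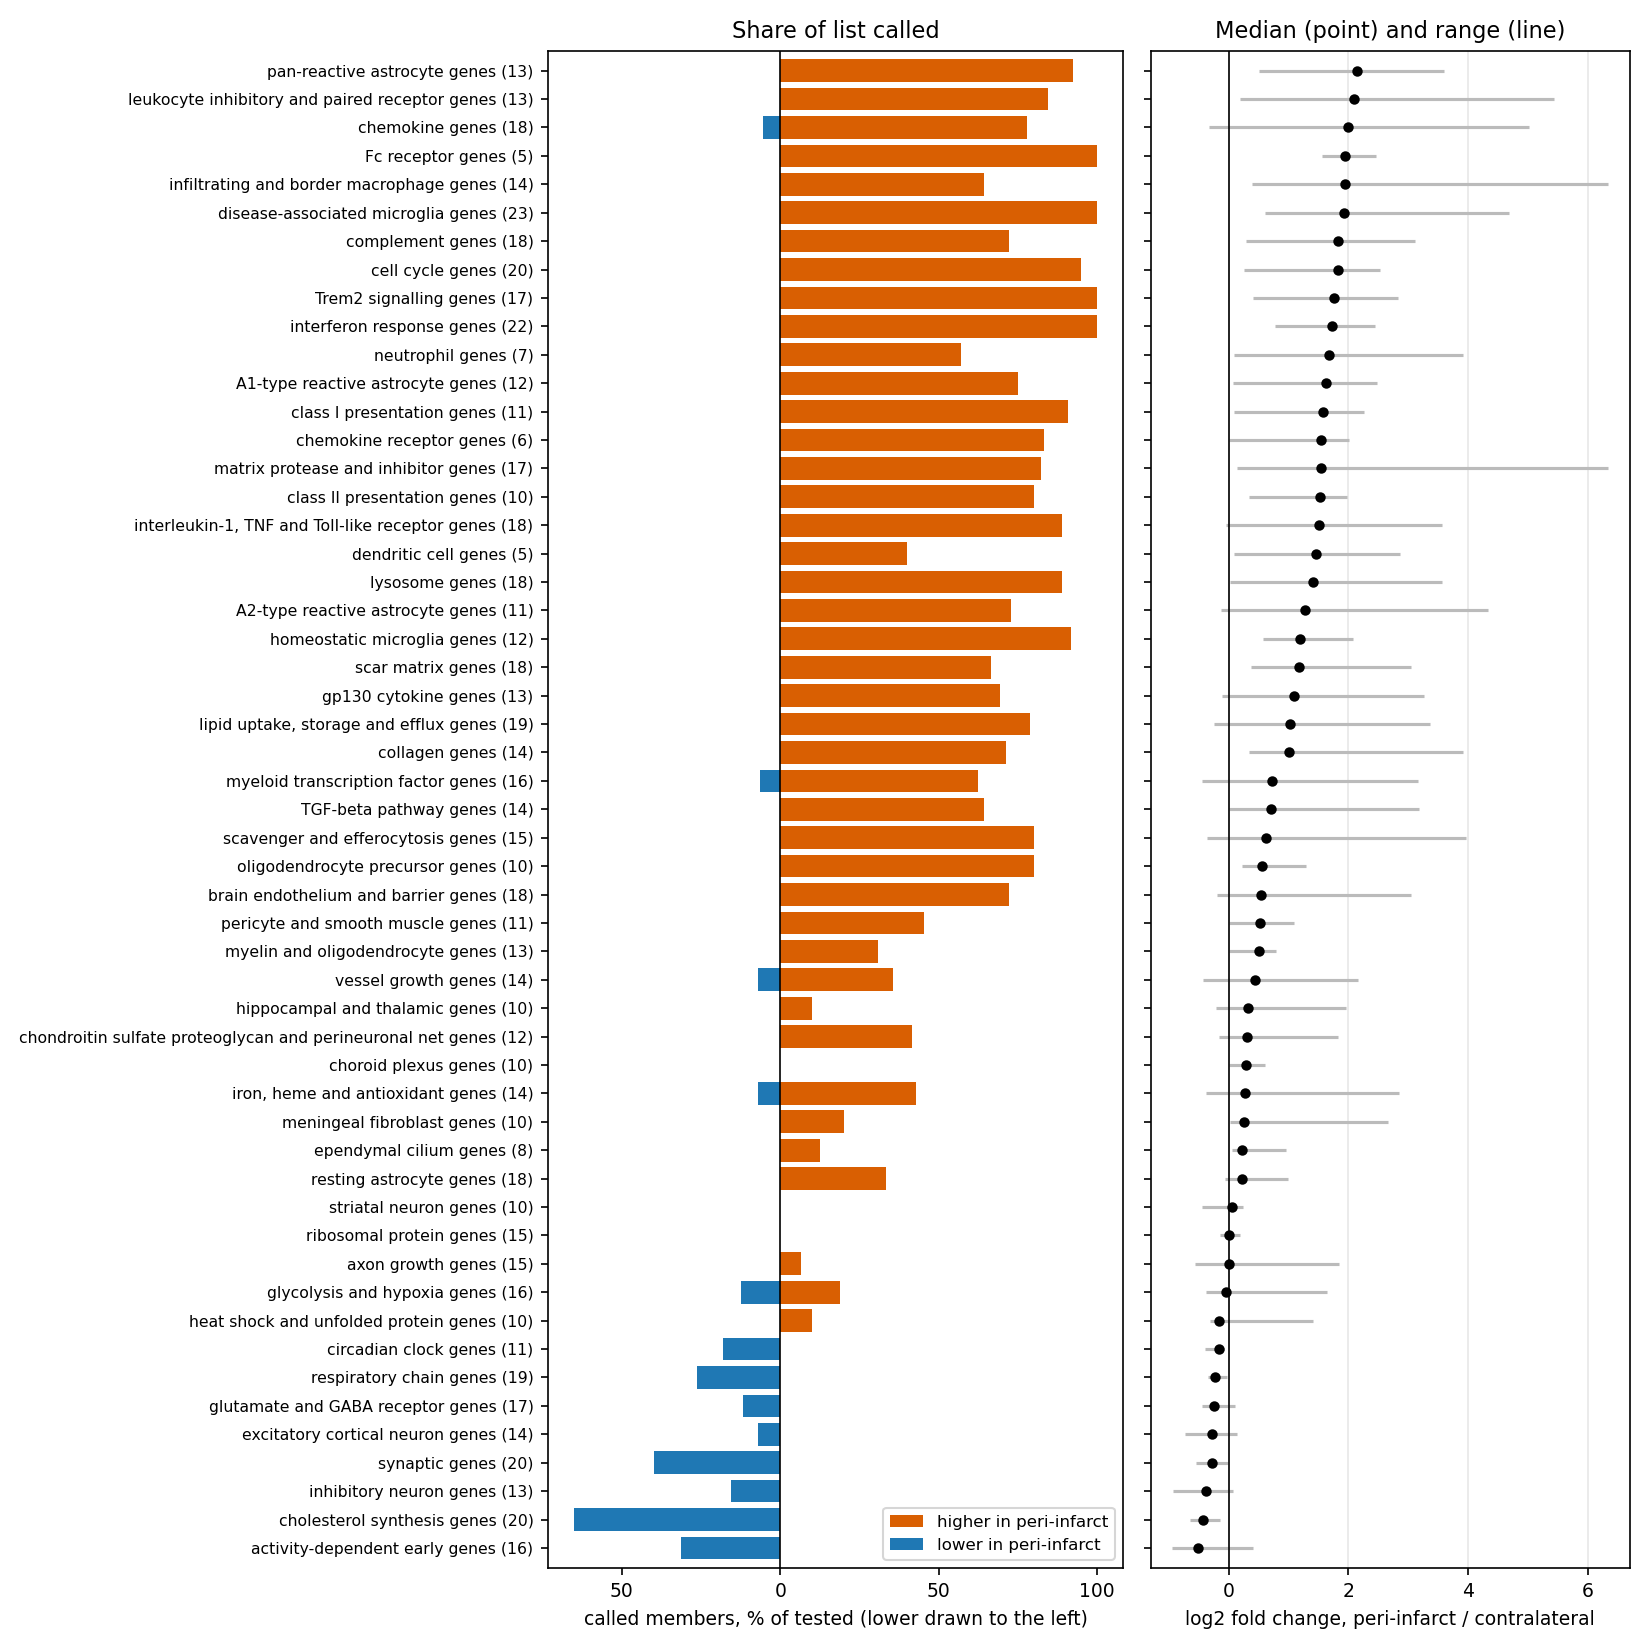
Gene lists with at least 5 tested members, ordered by their median log2 fold change between peri-infarct and contralateral tissue of the knockout; bars on the left give the share of tested members called higher (orange) or lower (blue, drawn leftwards), and points and lines on the right give the median and range of log2 fold changes, with the number tested in brackets. Immune and reactive astrocyte lists lie at the top with medians up to 2.14, and early genes, cholesterol synthesis and neuronal lists lie at the bottom with medians down to -0.52.

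Most border rises went further in the infarct core of the same genotype. Of the 2421 genes called higher at the border, 2201 (90.9%) had a higher mean CPM in the core than at the border, against 51.4% of all genes tested. Their median difference from contralateral tissue was 0.87 log2 CPM at the border and 1.63 in the core. Of the 589 genes called lower, 97 (16.5%) had a higher mean in the core. The border libraries also entered the choice of these genes, so the shares are a description. Apoe averaged 10077 ± 1949 CPM (SD, n = 3) in the core against 4941 ± 569 CPM at the border. Cd5l averaged 379 ± 102 CPM in the core against 80.9 ± 31.7 CPM.

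Myelin and resting astrocyte genes were among the lists that did not follow this order. The mean of all 13 myelin genes was lower in the core than at the border, and their summed level was 6364 to 8298 CPM contralaterally, 9224 to 12484 CPM at the border and 5069 to 7561 CPM in the core. Of 10 striatal neuron genes 0 had a higher mean in the core than at the border. Striatal genes summed to 628 to 1335 CPM contralaterally, 820 to 992 CPM at the border and 216 to 365 CPM in the core. Any link to the myelin genes was not tested. Of 18 resting astrocyte genes 2 had a higher mean in the core, as did 3 of 10 oligodendrocyte precursor genes, 3 of 12 proteoglycan genes, 5 of 11 pericyte genes and 0 of 8 ependymal genes. Aqp4 averaged 233 ± 34 CPM contralaterally, 464 ± 59.5 CPM at the border and 413 ± 41 CPM in the core.

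**Figure D3:**
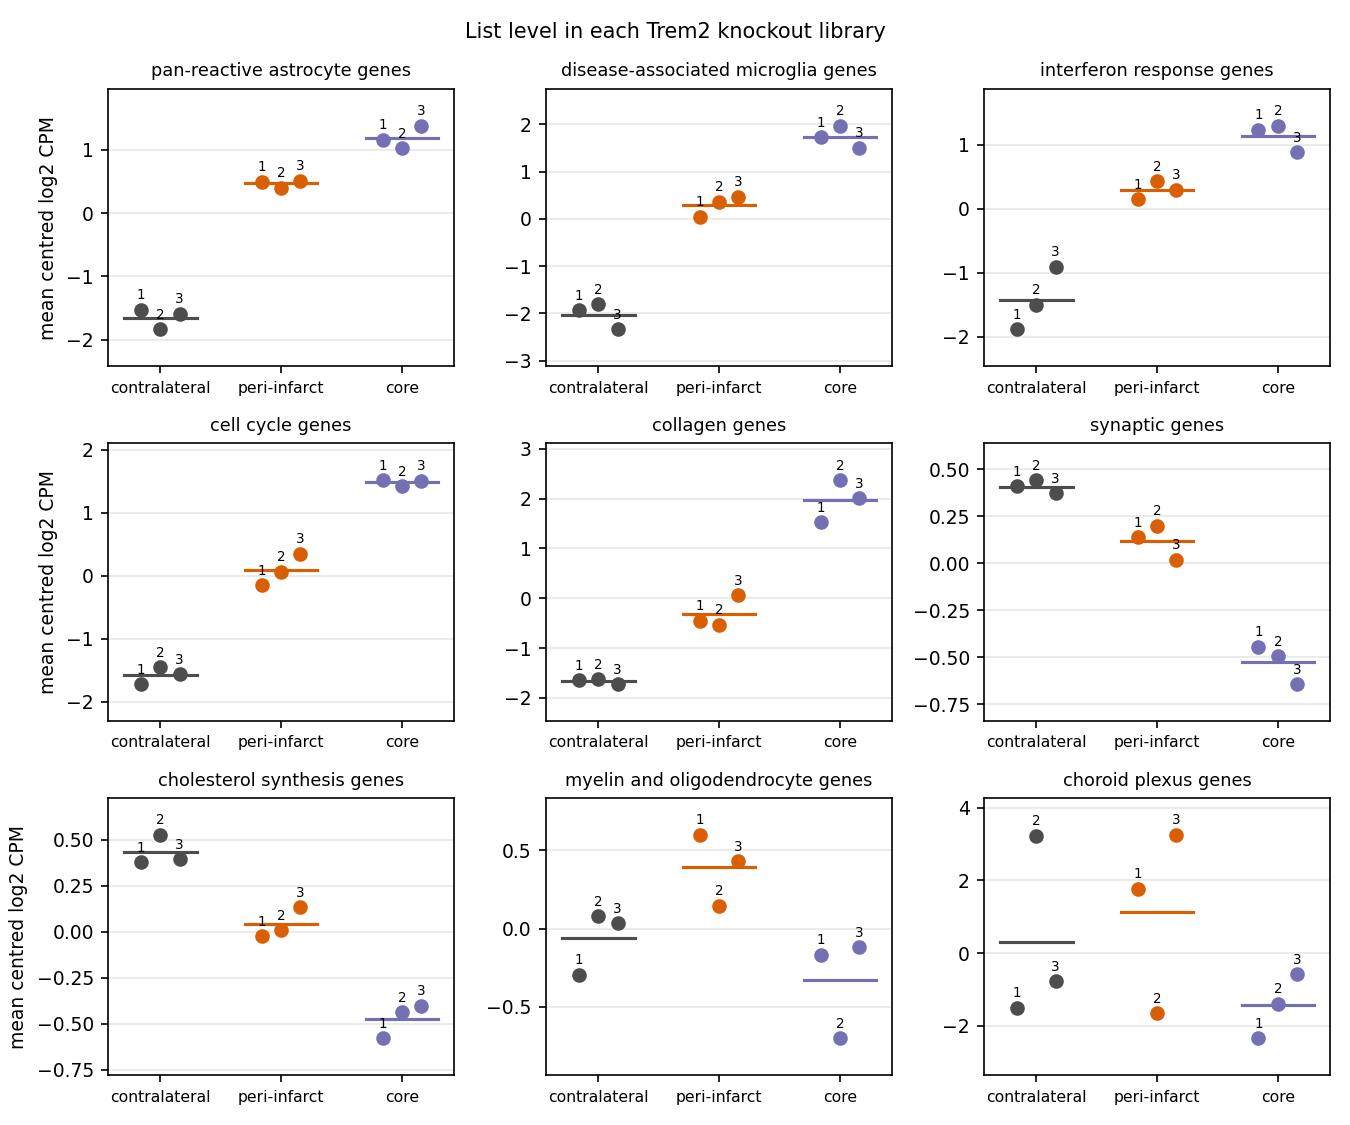
Level of 9 gene lists in each Trem2 knockout library, as the mean over tested members of log2 CPM after centring each gene on its mean over the 9 libraries; numbers are replicate numbers, horizontal bars are means of 3 libraries and the vertical scales differ. For 7 of the lists the border lies between contralateral tissue and core, myelin genes are highest at the border, and choroid plexus genes follow single libraries (contralateral replicate 2 and peri-infarct replicates 1 and 3) instead of sites.

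Whether the border response differed in the knockout was tested as an interaction in the 12 border and contralateral libraries of both genotypes. None of 15075 genes (0%) passed an edgeR adjusted p of 0.05, 517 (3.43%) had an unadjusted p under 0.05, and the smallest adjusted p was 1. DESeq2 called 3 genes: Lpl, H2-T24 and Gsn. Lpl stood at 22, 18.1 and 19.8 CPM in knockout contralateral tissue and at 35.5, 48 and 42.7 CPM at the knockout border. In wild-type tissue it stood at 23.4, 28.8 and 19.9 CPM and at 217, 113 and 131 CPM. The contralateral levels overlapped and all 3 wild-type border libraries lay above all knockout ones. The response was 1.03 ± 0.22 in the knockout and 2.67 ± 0.23 in wild type, a difference of -1.64 ± 0.31 (unadjusted p = 0.00025, edgeR; DESeq2 adjusted p = 0.002).

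The other 2 genes had the larger response in the knockout, but edgeR called neither. H2-T24, a class I-like gene, had a response of 1.73 ± 0.17 in the knockout and 0.53 ± 0.17 in wild type. The difference was 1.20 ± 0.24 (edgeR unadjusted p = 0.00026, DESeq2 adjusted p = 0.02). Border levels of H2-T24 were 22.5, 26.1 and 22.4 CPM in the knockout and 7.56, 8.55 and 8.48 CPM in wild type. Gsn, the actin-severing protein gelsolin, had a response of 0.88 ± 0.08 in the knockout and 0.42 ± 0.08 in wild type. The difference was 0.46 ± 0.11 (edgeR unadjusted p = 0.00093, DESeq2 adjusted p = 0.038). H2-T24 belongs to a family of close copies whose reads the counting could split.

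Apart from Lpl, called by DESeq2 only, no disease-associated microglia gene gave a called difference. Of the 23, 2 had an unadjusted p under 0.05, and the median response was 1.88 in the knockout and 2.13 in wild type. Spp1 rose by 4.64 ± 0.56 in the knockout and 3.50 ± 0.53 in wild type, a difference of 1.14 ± 0.69 (unadjusted p = 0.13, edgeR). Cd9 responded by 1.42 ± 0.12 and 1.44 ± 0.12. Errors were wide in genes such as Gpnmb, whose difference was 0.10 ± 0.80, and a p above the threshold does not show that the genotypes responded alike.

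**Figure D4:**
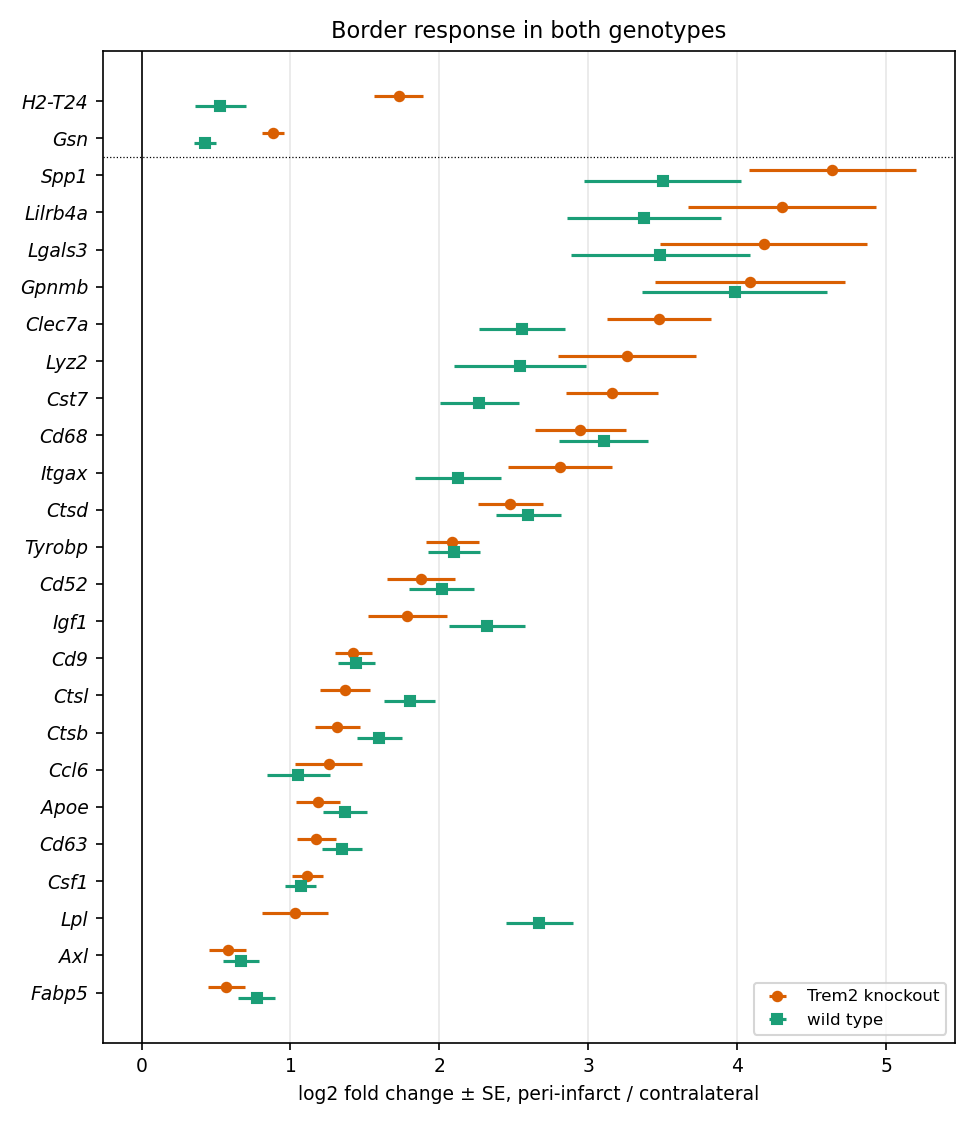
Log2 fold change between peri-infarct and contralateral tissue, with its standard error, for the 23 disease-associated microglia genes and, above the dotted line, Gsn and H2-T24; orange circles are Trem2 knockout and green squares wild type, 3 libraries per site and genotype. Lpl shows the widest gap towards wild type (1.03 against 2.67), and the points of every other gene shown lie closer together.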

How the data were processed

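RNA was measured in 18 libraries made from polyadenylated RNA, 3 for each tissue site and genotype. The deposited gene table holds estimated counts as the authors made them, since 3678 of 18922 genes (19.4%) have values that are not whole; a second deposited table holds TPM, which the authors scaled for length and depth. Per the submitters' processing notes, build GRCm39 was used together with Subread, Bowtie2 and HISAT2 2.0.4; which of them made the counts is not given. The design had assumed whole counts, so the estimates were rounded.

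Genes passing filterByExpr were tested with edgeR 4.0.16 (R 4.3.3): TMM scaling, robust quasi-likelihood fit of the 9 knockout libraries with 6 residual degrees of freedom, the core included for its share in the spread, and Benjamini-Hochberg adjustment over all genes tested at a threshold of 0.05. Each SE was taken from the fold change and its F statistic (size over root F). CPM values use total counts. The genotype difference was an interaction fitted on 12 libraries. Median-level shifts between scalings were under 0.1. Alternatives were DESeq2 1.42.0, limma 3.58.1 (voom, and trend on log2 TPM with a pseudocount of 1 or 0.1), RLE scaling, other filters, other library sets, a replicate block and leaving out each library. The fit was tested on simulated data.

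Genes named are Trem2, the 12 largest rises and 12 largest falls among called genes with mean log2 CPM of at least 1 and no overlap of libraries, and of each of 57 lists the first 2 members and the 4 with the smallest p. The members and lists were chosen with earlier results of these data known. Some genes are in more than 1 list, so the counts of different lists are not independent. Of the listed genes, 7 were not found in the table, and 1 list, of nuclear-retained RNAs, had none. Some genes that this rule names are not reported here.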

Additional observations from a re-analysis of the deposited data

How the results depend on the processing

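No named gene reversed its direction in any of the 20 alternatives. Of 217 named genes called, 181 kept the call in every fit that left out 1 of the 9 knockout libraries and 115 in all 20 alternatives. Leaving out 1 library gave 2048 to 3334 calls, 1798 to 2175 higher and 250 to 1161 lower. Calls of falls moved most: 931 with the 6 libraries alone, 1175 with 17 libraries (all but 1 wild-type core library), 1166 with DESeq2 and 887 with RLE scaling. Rises made up 64.4% of the calls with 17 libraries. With all 18 libraries, which include a wild-type core library set apart from its group, 686 genes were called, 678 higher and 8 lower and 39 of 56 list counts moved by over 1.5 times. For the genotype difference DESeq2 called 3 genes and edgeR none in any of its fits, where 112 to 843 genes had an unadjusted p under 0.05.

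Same-numbered contralateral and peri-infarct libraries did not deviate together (correlations 0.0187, 0.0289 and -0.1, none highest with its own number), and of the core libraries replicate 3 correlated best with its own number (0.195 with contralateral replicate 3). The labels do not say what a number stands for, so the samples were not treated as paired. A replicate block gave 2770 calls, 2278 higher and 492 lower. With 3 libraries a site, genes near the threshold depend on single libraries, and most genes of lymphocytes lie too low to be tested at this depth.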

Other observations

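Several gene families, some of whose members are also in the lists above, had many calls at the knockout border; they were chosen after their values were seen and carry no test as families. Of 11 tested members of the Ifi200 family, DNA sensors induced by interferon, 10 were called higher, and so were 8 of 9 guanylate-binding proteins and 6 of 7 schlafen genes. All 7 Ms4a genes tested rose, Ms4a7 by 2.91 and Ms4a6d by 2.84, along with 6 of 7 Cd300 receptors and 7 of 8 C-type lectin receptors of the Clec4, Clec7 and Clec12 groups. Of 12 cathepsins 10 rose, of 11 Toll-like receptors 9, and of 10 annexins 6. Of 25 genes with integrin symbols 14 rose. The 25 include Itgb1bp2, which is not an integrin subunit and was not called. These shares stand against 16% of all genes tested.

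Ion channel families were called in both directions or lower. Of 81 potassium channel genes 4 were higher, against 16% of all genes tested, and 4 lower. Of 31 genes with sodium or calcium channel symbols, Cacng genes included, none was higher and 3 were lower: Scn2a, Cacnb4 and Cacng2. Of 13 GABA-A subunits 3 were lower. These falls stand against 3.89% lower among all genes tested. Of 4 aquaporins only Aqp4 was called. Mmp10, another stromelysin, had no read in any contralateral knockout library and a mean of 0.519 CPM at the border, at least 8.91-fold higher when set against a floor of 3 counts over the group.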
